A study of Homo sapiens with 12 samples.

Results

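The response of MUTZ-1 cells to knockdown of NUDT21 was described across all genes, from 6 of the 12 libraries of the series: 3 of cells with a short hairpin RNA (shRNA) against NUDT21 and 3 of cells with a control shRNA. The libraries were chosen by line and shRNA from the sample titles, and not by any measured value. MUTZ-1 is an established human line that the labels call cells of myelodysplastic syndrome from marrow. It was cultured in medium with fetal bovine serum, and no drug, dose or time after the shRNA is given. The genotype label of the controls is WT, although their titles name a control shRNA, so that the control is taken here as the titles give it. The knockdown columns carry the name sh1, and no second hairpin was analysed in this line. The other 6 libraries were of the line SKM-1 with the same 2 kinds of shRNA. They entered the filter on low counts, the scaling and the fit for its estimate of the spread, and served to compare single genes. A gene with 0 counts in MUTZ-1 could thus be among those tested. Polyadenylated RNA was sequenced, and levels are given in CPM, a gene's counts per 1000000 counts of the scaled library. Nothing in the labels says that replicates came from separate cultures, and the p-values may then reflect no more than technical spread between libraries.

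Cleavage factor Im (CFIm) binds UGUA sequences in nascent transcripts, through its small subunit NUDT21, and favours cleavage and polyadenylation at the site next to them. CPSF6 and CPSF7 are its large subunits. Many genes have more than one poly(A) site, and with little CFIm cells tend to use the site nearer to the coding region, which shortens the end of the transcript. Counts per gene show how much mRNA of a gene was present and not which site it used.

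The 6 libraries held 15843012 to 18426619 counts. The first principal component (59.4% of the variance) separated the knockdown from the control libraries, and the second (11.3%) set control replicate 3 apart from the other 5. Defining markers showed a B-lymphoid profile in every library, not a myeloid one: 17 of 19 B-cell markers averaged at least 5 CPM and summed to 3930.4 to 3937 CPM in the control libraries and 3693 to 3772 CPM after knockdown. Of 20 myeloid and monocyte markers none averaged 5 CPM. MPO, VCAN and FCGR1A were at 0 counts, and the list summed to 3.39 to 8.78 CPM in the control and 2.28 to 3.39 CPM in the knockdown libraries. Genes that averaged 100 CPM or more in SKM-1 control and at most 0.5% of that level in MUTZ-1 stood together at 0.0652% to 0.137% of it in the control and at 0.126% to 0.149% in the knockdown libraries. Whether such trace RNA has a part in calls at low levels was not tested. In bulk RNA, fewer cells of a type and less RNA per cell cannot be told apart.

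NUDT21 stood at 301, 297 and 301 CPM in control and at 135, 136 and 142 CPM in knockdown libraries. Every knockdown library lay below every control library, and 46.1% of the control level was left (log2 fold change -1.12 ± 0.03 SE, adjusted p = 1.10e-94). Its partner CPSF6 stood at 308, 299 and 315 CPM in control and at 416, 424 and 409 CPM in knockdown libraries, so that the larger subunit was higher in all 3 knockdown libraries (log2 fold change 0.44 ± 0.02 SE, adjusted p = 7.10e-42). CPSF7 was 271 CPM in control and 239 CPM after knockdown and changed the other way (log2 fold change -0.18 ± 0.03 SE, adjusted p = 9.03e-10). In the 3' end processing list, 12 of 26 genes fell and 5 rose, against 24.6% lower and 24.4% higher of all 13625 genes tested. Among them CPSF4 and CLP1, of the cleavage machinery, fell from 97.2 to 78.2 CPM and from 24.1 to 19.5 CPM. CSTF2T, a paralog of the cleavage stimulation factor CSTF2, rose from 93.8 to 111 CPM. Of 22 genes with poly(A) sites known to depend on NUDT21 that could be tested, 8 fell and 5 rose, with a median log2 fold change of -0.03. Among them the kinase gene PAK2 and the phosphatase-family gene MTMR12 fell from 541 to 283 CPM and from 162 to 136 CPM, and the fibronectin-domain gene FNDC3B rose from 32.2 to 44.7 CPM.

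Across the table, 3324 genes rose and 3356 fell at an adjusted p under 0.05, 49.0% of the genes tested in all, and the groups did not overlap for 53.6% of genes. Most changes were small: 424 genes (3.11%) rose and 223 (1.64%) fell at least 2-fold. Of these, 337 and 189 averaged under 5 CPM. At a mean level of 5 CPM or more, 2723 of 9713 genes were called higher (28.0%) and 3093 lower (31.8%), 87 (0.896%) and 34 (0.35%) of them at least 2-fold. The share of rises among all calls was 49.8% with the scaling used here and 60.7% with library totals alone (61.1% to 61.2% on deposited FPKM values), a scaling that moved the median log2 fold change of all genes from 0.00 to 0.05. The direction depended on level. Among genes of at least 5 CPM, the fifth with the lowest levels had a median log2 fold change of 0.14 and the fifth with the highest levels one of -0.07. Gene length moved with the change as well, with medians of -0.04 for the fifth of shortest genes and 0.05 for the fifth of longest. The share of a list called in a direction is read below beside the shares of all genes. These shares are matched to a list for neither level nor length, and no list was given a test of its own.

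**Figure D1:**
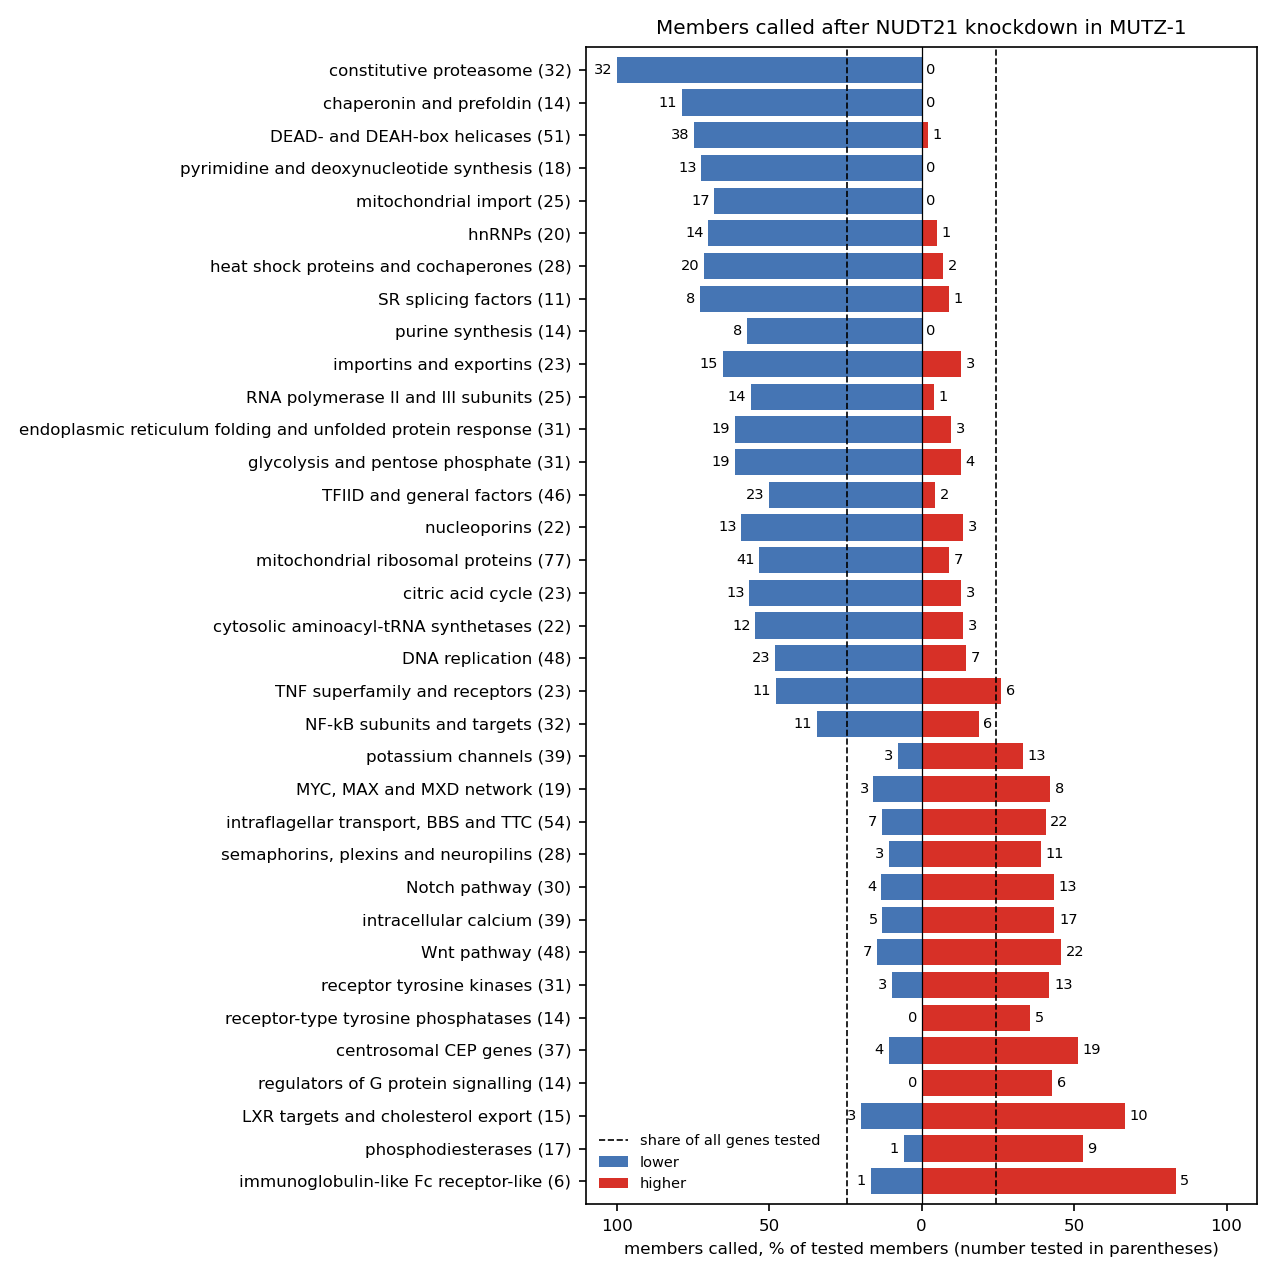
Share of tested members called higher (right) or lower (left) after NUDT21 knockdown in MUTZ-1, in percent, for the 35 lists and families led with in the text; the number beside each bar is the count of members called. Dashed lines mark the shares of all 13625 genes tested, 24.4% higher and 24.6% lower, not matched to a list for level or length. All 32 proteasome genes fell, and no regulator of G protein signalling did.

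Genes of protein breakdown and folding fell together by small amounts. The proteasome is the barrel-shaped protease that degrades ubiquitin-tagged proteins, with a core of alpha and beta subunits and a cap of ATPase and lid subunits. All 32 of its 32 constitutive subunit and assembly genes fell, with a median log2 fold change of -0.21 against 0.00 for all genes. Their levels summed to 6672 to 6830.0 CPM in the control and 5723 to 5789 CPM in the knockdown libraries, a gap wider than the spread within either group. PSMB5, the beta subunit with chymotrypsin-like activity and the target of bortezomib, stood at 146, 146 and 141 CPM in control and at 113, 109.9 and 108 CPM in knockdown libraries (log2 fold change -0.39 ± 0.03 SE, adjusted p = 5.22e-23). PSMD6, of the lid, stood at 63.0, 59.8 and 62.3 CPM in control and at 50.1, 45.9 and 44.9 CPM in knockdown libraries (log2 fold change -0.39 ± 0.05 SE, adjusted p = 1.44e-13). Both genes were lower in every knockdown library. PSMD11, PSMD7 and PSMD2, also of the cap, fell from 223 to 176 CPM, from 194 to 153 CPM and from 611 to 482 CPM. Under the other settings tried, 27 to 32 of the 32 genes were called lower and none higher.

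Of 28 heat shock proteins and cochaperones, 20 fell and 2 rose (median -0.31). HSPA8, the constitutive HSP70 that folds new proteins in the cytosol, stood at 2736, 2787 and 2747 CPM in control and at 1880.3, 1875 and 1844 CPM in knockdown libraries (log2 fold change -0.56 ± 0.02 SE, adjusted p = 9.00e-81). HSPD1, the mitochondrial chaperonin HSP60, stood at 1289.8, 1285 and 1277 CPM in control and at 841, 830.4 and 842 CPM in knockdown libraries (log2 fold change -0.62 ± 0.02 SE, adjusted p = 6.92e-80). For both genes the groups were far apart, with each control library above each knockdown library. HSPH1, a nucleotide exchange factor of HSP70, fell from 552 to 384 CPM, the HSP90 cochaperone genes FKBP4 and AHSA1 from 361 to 256 CPM and from 264 to 198 CPM, and HSP90AA1 and HSP90AB1 from 2892 to 2321 CPM and from 3009 to 2440.5 CPM. The exceptions were BAG3, which links HSP70 to autophagy, and DNAJB4, a J-protein that hands substrates to HSP70, which rose from 12.8 to 15.7 CPM and from 14.4 to 19.4 CPM. The heat shock regulator gene HSF1 fell from 111 to 97.4 CPM.

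The promoters of these genes are shown because heat shock genes are classically driven by heat shock elements, the binding sites of HSF1. The letters TTCNNGAA, which read the same on both strands, were searched in RefSeq promoters (GRCh38.p14, 250 bases before to 50 after the start of the gene). They occurred in 4 of the 17 promoters on hand for genes of the list that fell (23.5%), those of HSPA8, HSPA9, DNAJA1 and CHORDC1, and in 6.02% of the 10975 promoters of genes tested. They also occurred in that of DNAJB6, a list member that did not pass the test (from 96.6 to 99.02 CPM), and HSPD1 and HSP90AB1 fell without these letters in the window. No other spelling of a heat shock element was searched, so that a window without these letters may still hold one. Those of 3 genes are given in full, 5' to 3' and with the matches in capitals: HSPA8 (chr11:123062087-123062386, minus strand), DNAJA1 (chr9:33025023-33025322, plus strand) and CHORDC1 (chr11:90223000-90223299, minus strand).
HSPA8: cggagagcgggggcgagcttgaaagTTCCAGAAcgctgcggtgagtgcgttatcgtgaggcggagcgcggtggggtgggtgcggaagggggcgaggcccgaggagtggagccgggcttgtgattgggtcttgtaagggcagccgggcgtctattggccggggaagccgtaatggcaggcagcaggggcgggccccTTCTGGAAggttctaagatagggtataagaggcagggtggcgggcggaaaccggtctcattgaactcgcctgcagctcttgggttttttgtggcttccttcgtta
DNAJA1: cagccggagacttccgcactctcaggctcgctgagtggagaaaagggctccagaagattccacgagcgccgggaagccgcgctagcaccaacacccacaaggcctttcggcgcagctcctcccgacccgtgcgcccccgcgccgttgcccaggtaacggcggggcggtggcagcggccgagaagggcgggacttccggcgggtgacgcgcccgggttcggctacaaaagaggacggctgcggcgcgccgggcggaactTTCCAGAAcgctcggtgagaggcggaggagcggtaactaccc
CHORDC1: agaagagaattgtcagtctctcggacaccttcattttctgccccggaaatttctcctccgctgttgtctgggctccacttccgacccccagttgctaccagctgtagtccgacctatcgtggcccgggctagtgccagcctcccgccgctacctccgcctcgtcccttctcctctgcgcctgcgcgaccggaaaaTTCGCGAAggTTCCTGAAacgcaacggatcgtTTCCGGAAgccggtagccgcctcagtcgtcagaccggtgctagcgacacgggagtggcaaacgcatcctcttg
HSPA8 held 2 matches, DNAJA1 1 and CHORDC1, a HSP90 cochaperone gene, 3. DNAJA1, a J-protein partner of HSPA8, stood at 367, 383 and 381 CPM in control and at 283, 275 and 273 CPM in knockdown libraries, and CHORDC1 at 95.3, 96.8 and 95.4 CPM in control and at 65.8, 71.0 and 70.6 CPM in knockdown libraries. Each was lower in all 3 knockdown libraries (log2 fold change -0.44 ± 0.02 SE and -0.47 ± 0.04). The match is a description of the sequence and says nothing about binding in these cells. Whether the match goes with the fall among genes of the list was not tested.

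The cytosolic chaperonin, which folds actin and tubulin, and prefoldin, which delivers substrates to it, showed the same direction, with 11 of 14 genes lower and 0 higher. All 8 chaperonin subunit genes fell, CCT3 and CCT2 the most (from 999.9 to 798 CPM and from 367 to 294 CPM), while the prefoldin genes PFDN5, PFDN1 and PFDN6 did not pass the test. In the endoplasmic reticulum, 19 of 31 folding and unfolded protein response genes fell and 3 rose. SEC61A1, the channel through which proteins enter the reticulum, fell from 474 to 390.3 CPM, and the calcium-binding chaperones CALR and CANX fell from 882 to 765 CPM and from 1071 to 926 CPM. The transcription factor gene XBP1 fell from 192 to 161 CPM. The rises were of DERL3, SYVN1 and HERPUD1, which act in the export of misfolded proteins for degradation (from 54.3 to 78.8 CPM, from 396 to 469 CPM and from 148 to 157 CPM), the last a call that ended without control replicate 3, without knockdown replicate 1 or 3, or with the length trend removed.

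Genes that handle RNA in the nucleus formed a further falling group. Of 51 DEAD- and DEAH-box RNA helicases, 38 fell and 1 rose (median -0.20), and of 20 hnRNP genes, which coat nascent RNA, 14 fell and 1 rose. The rises were of DDX11, a DNA helicase of sister chromatid cohesion, and of HNRNPLL (from 159 to 181 CPM and from 2.54 to 3.55 CPM). The HNRNPLL call was lost without control replicate 3 and without knockdown replicate 1, with an adjusted p of 0.189 in the latter case. Several of the helicases that fell serve ribosome assembly, such as DDX21 (from 609 to 409 CPM) and DHX37 (from 120.2 to 76.7 CPM). Others do not: DHX9, which unwinds double-stranded RNA, fell from 990.1 to 774 CPM, and DDX20, of the SMN complex, fell from 65.1 to 52.7 CPM. Of the hnRNPs, HNRNPR fell from 519.9 to 394 CPM and HNRNPU from 1026 to 835 CPM. Of the SR splicing factors, which mark exons for the spliceosome, 8 of 11 fell and 1 rose. SRSF6 stood at 284, 292 and 297 CPM in control and at 199, 195 and 198 CPM in knockdown libraries, the largest change of that family (log2 fold change -0.56 ± 0.03 SE, adjusted p = 6.29e-50). Each knockdown library was lower than each control library. SRSF11 rose from 508 to 545 CPM, a call lost with the length trend removed, and SRSF10 did not pass the test (from 436 to 447 CPM).

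Nuclear transport and general transcription genes followed. Of 23 importins and exportins, 15 fell and 3 rose, and of 22 nucleoporins 13 fell and 3 rose. IPO4, an importin that carries histones and ribosomal proteins, stood at 172, 175 and 172 CPM in control and at 111, 111 and 101 CPM in knockdown libraries (log2 fold change -0.69 ± 0.03 SE, adjusted p = 1.72e-49). The knockdown libraries were all lower. XPO1, the main exporter of proteins with a leucine-rich export signal, fell from 615 to 509 CPM, whereas IPO7 and IPO9 rose from 313 to 364 CPM and from 319 to 350.0 CPM, the call of IPO9 being lost with the length trend removed. Of 46 general transcription factor genes, 23 fell and 2 rose, with the largest called fall in TAF9, a subunit of TFIID (from 70.0 to 43.6 CPM). Among subunits of RNA polymerases II and III, 1 rose and 14 of 25 fell, POLR2L and POLR2F (from 65.6 to 50.5 CPM and from 64.8 to 51.3 CPM), which the polymerases share, among the falls, and POLR3GL, of polymerase III, the rise (from 27.1 to 32.7 CPM). Of 22 genes of cytosolic aminoacyl-tRNA synthetases, which charge tRNAs with amino acids, and of their complex, 12 fell, among them AIMP2, a scaffold of the complex (from 80.5 to 56.3 CPM), and VARS1 (from 239.9 to 193 CPM), and 3 rose, SARS1 and AARS1 (from 229 to 264 CPM and from 460.3 to 524 CPM) and, by a margin that 6 of the 15 alternatives did not keep, IARS1 (from 621 to 642 CPM).

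Mitochondrial import and translation genes fell more often than all genes. Of 25 genes of the import machinery, 17 fell and 0 rose. TOMM40, the pore of the outer membrane, stood at 218, 227 and 217 CPM in control and at 146, 142 and 149.5 CPM in knockdown libraries (log2 fold change -0.60 ± 0.03 SE, adjusted p = 8.63e-49). All control libraries were above all knockdown libraries. TOMM22, its receptor, and TIMM10, a chaperone of the intermembrane space, fell from 101 to 77.5 CPM and from 60.7 to 48.2 CPM. Of 77 mitochondrial ribosomal proteins, 7 rose and 41 fell, the falls including MRPL15 (from 51.8 to 35.1 CPM) and MRPL4 (from 149.7 to 107 CPM). In the citric acid cycle 13 of 23 fell and 3 rose, with 8 lower on deposited FPKM values at either pseudocount. IDH3A fell from 136 to 100.01 CPM, while IDH2, the mitochondrial NADP-dependent isocitrate dehydrogenase, rose from 112 to 152 CPM. Of 47 genes of complex I, the first complex of the respiratory chain, 11 fell and 8 rose.

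Genes that supply nucleotides, sugars for them and one-carbon units held more falls than rises. In pyrimidine and deoxynucleotide synthesis 13 of 18 genes fell and 0 rose, and in purine synthesis 8 of 14 fell and 0 rose. CTPS1, which makes CTP and on which dividing lymphocytes depend, fell from 215 to 170.1 CPM. RRM2, a subunit of ribonucleotide reductase, fell from 471 to 389 CPM, and the purine enzymes ADSL and PAICS from 192 to 151 CPM and from 952 to 782 CPM. SAMHD1, which breaks deoxynucleotides down and is also induced by interferon, had the largest change of the pyrimidine list (from 117 to 81.9 CPM). Of 19 serine, glycine and folate genes, which supply one-carbon units, 10 fell and 1 rose. The folate carriers SLC19A1 of the plasma membrane and SLC25A32 of mitochondria fell from 70.7 to 50.9 CPM and from 90.1 to 62.0 CPM. In glycolysis and the pentose phosphate pathway 19 of 31 fell and 4 rose. RPIA, which makes ribose 5-phosphate, stood at 89.3, 94.3 and 89.2 CPM in control and at 57.8, 53.3 and 61.5 CPM in knockdown libraries (log2 fold change -0.66 ± 0.04 SE, adjusted p = 3.37e-32), lower in every knockdown library. HK2 and SLC2A1, the first enzyme and a main glucose carrier of glycolysis, fell from 269.7 to 199 CPM and from 119.5 to 88.9 CPM. Of 17 polyamine genes, 7 fell and 5 rose. SRM, which makes spermidine, fell from 344 to 233 CPM, and SAT1, which starts their breakdown, rose from 48.6 to 58.4 CPM.

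**Figure D2:**
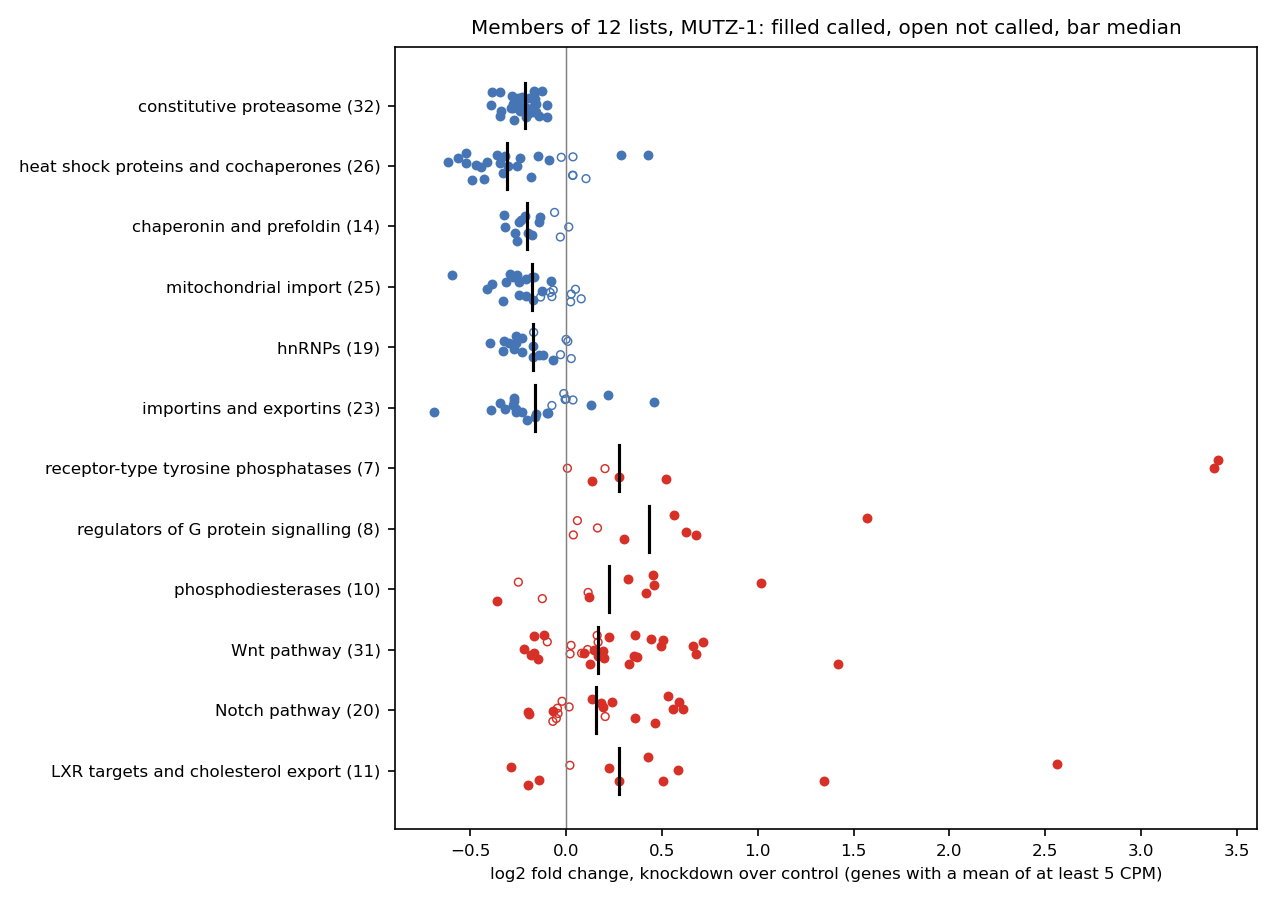
Log2 fold change (knockdown against control, MUTZ-1) of each tested member with a mean of at least 5 CPM in 12 lists; each point is 1 gene, filled where it was called at an adjusted p under 0.05 and open where not, and the bar is the median of the points. The 32 proteasome genes lie close together below 0, while members of the rising lists spread widely and include PTPRR and PTPRB, the largest rises plotted.

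Genes of the cell cycle changed by small amounts, with more falls than rises in mitosis and DNA replication. Of 47 mitosis genes, 23 fell and 6 rose, and of 30 regulators of the step from G1 to S phase 11 fell and 10 rose. Of 48 DNA replication genes, 23 fell and 7 rose. On deposited FPKM values 14 (pseudocount 0.1) and 15 (pseudocount 1) fell. The falls were largest in ORC1 and ORC6, of the complex that marks origins (from 85.0 to 60.1 CPM and from 52.0 to 39.6 CPM), and in MCM7, a subunit of the replicative helicase (from 1006 to 754 CPM), while CDC7, the kinase that starts origin firing, rose from 68.8 to 81.2 CPM. MKI67, a marker of cycling cells, was 1155 CPM in control and 1155 CPM after knockdown and did not pass the test. Of the MYC network, MYC itself rose by little (from 401 to 417 CPM, log2 fold change 0.06 ± 0.02 SE, adjusted p = 0.0174), a call lost without knockdown replicate 3 or with the length trend removed. In all, 8 of its 19 genes rose, against 3 that fell. The rises included the partners of MAX that repress transcription, MXD3, MXI1, MNT and MXD4 (from 18.7 to 27.3 CPM, from 27.5 to 39.1 CPM, from 48.9 to 60.6 CPM and from 43.5 to 53.6 CPM).

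One group of falling genes shared a position and not a function. Of the 30 largest falls named by rule, 6 (TFRC, NRROS, PAK2, LSG1, FBXO45 and NCBP2AS2) lie at the end of the long arm of chromosome 3. This block was seen in the values and not chosen beforehand, so its counts carry no test. From LSG1 to LMLN, the last gene measured there (chr3:194640791-198043720, GRCh38), 27 of 29 genes that averaged 5 CPM or more fell and 2 rose, with a median log2 fold change of -0.67. For all 29 genes the groups did not overlap, as for 64.5% of all genes of that level. On the rest of chromosome 3, 139 of 504 such genes fell and 167 rose (median 0.02), and the 15 nearest genes before the block had a median of 0.17, with 9 higher and 3 lower. Medians of whole chromosomes lay between -0.05 and 0.01. Over all runs of 15 neighbouring genes, the lowest median of the genome was -0.72, from TNK2 to NCBP2AS2 in this block, and the next lowest, outside it, was -0.30, in the MHC region on chromosome 6.

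**Figure D3:**
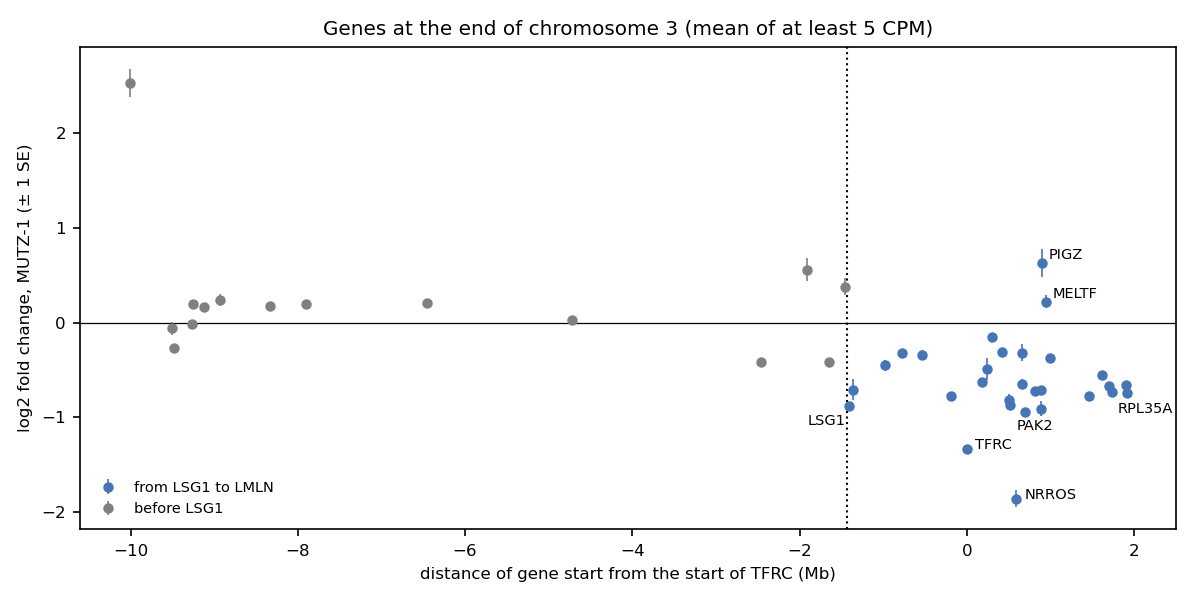
Log2 fold change in MUTZ-1 (vertical axis) of genes that averaged 5 CPM or more at the end of chromosome 3 against the distance of their start from that of TFRC in megabases (horizontal axis); bars are ± 1 SE. Before LSG1 (dotted line) genes lie on both sides of 0, and after it 27 of 29 lie below 0.

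The genes of the block do unrelated work. TFRC, the transferrin receptor that brings iron into the cell, stood at 745, 722 and 741 CPM in control and at 295, 289.6 and 289.8 CPM in knockdown libraries (log2 fold change -1.34 ± 0.02 SE, adjusted p = 7.90e-131). PAK2, a kinase that acts under the GTPases RAC and CDC42 and a member of the list of NUDT21-dependent poly(A) sites, stood at 538, 531 and 552 CPM in control and at 281, 279 and 287 CPM in knockdown libraries (log2 fold change -0.94 ± 0.02 SE, adjusted p = 1.83e-94). NRROS, a membrane protein that holds latent TGF-beta, stood at 28.4, 27.1 and 29.9 CPM in control and at 7.97, 8.27 and 7.26 CPM in knockdown libraries (log2 fold change -1.86 ± 0.09 SE, adjusted p = 6.64e-49). In these 3 genes each knockdown library lay below each control library. LSG1, a GTPase of late ribosome maturation, fell from 142 to 77.0 CPM, PCYT1A, an enzyme of phosphatidylcholine synthesis, from 99.2 to 63.9 CPM, NCBP2, the cap-binding protein, from 174 to 106 CPM, FBXO45, an F-box protein, from 164 to 89.7 CPM, and BDH1, of ketone body metabolism, from 118 to 68.7 CPM. The exceptions were PIGZ and MELTF, which rose from 4.83 to 7.46 CPM and from 23.2 to 27.0 CPM. MUC4 rose as well, at trace levels (from 0.0377 to 0.465 CPM). Smaller falls were those of UBXN7, RNF168 and ACAP2 (-0.15, -0.31 and -0.32 log2). Gene copy number was not tested.

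Some members of the block also stood at the edge of their own lists. RPL35A, in the block, stood at 748, 761 and 748 CPM in control and at 477, 464 and 487 CPM in knockdown libraries (log2 fold change -0.66 ± 0.02 SE, adjusted p = 3.89e-69), all knockdown libraries being lower. Of the 81 cytosolic ribosomal protein genes tested, 46 rose and 8 fell, and RPL35A had the lowest value of them. The next lowest were RPL22L1 and RPL26L1, paralogs of RPL22 and RPL26 (from 36.1 to 27.7 CPM and from 42.8 to 34.5 CPM), while RPL29 and RPL11 rose from 303 to 371 CPM and from 771 to 925 CPM. In iron handling, 9 of 21 genes fell and 5 rose. The genes named here next to TFRC are small rises and do not stand for the falls of the list. The importer SLC11A2 and the ferritin heavy chain FTH1 rose from 33.2 to 38.01 CPM and from 583 to 620.4 CPM. In SKM-1, 17 of the 29 genes of the block fell and 9 rose, with a median log2 fold change of -0.32. Of 9049 genes of other chromosomes, chosen by the same MUTZ-1 level, 3512 fell and 4261 rose in SKM-1 (median 0.08). The block thus leaned lower in SKM-1 as well. So did the 15 nearest genes before it, with 8 lower and 4 higher in SKM-1 (median -0.23). The lean in SKM-1 was therefore not particular to the block. The difference between the lines was called for 25 of the 29, with MUTZ-1 the lower in 17. It was called for 83.2% of all genes that averaged 5 CPM or more, so that the count of called differences lies near the background.

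The rises were largest in single genes of signalling and surface families. PTPRR and PTPRB, receptor-type phosphatases that remove phosphate from tyrosine (PTPRR acts on ERK kinases, PTPRB on receptors of blood vessel cells), were the 2 largest rises named by rule. PTPRR stood at 4.13, 3.58 and 4.41 CPM in control and at 43.6, 42.2 and 40.6 CPM in knockdown libraries (log2 fold change 3.38 ± 0.10 SE, adjusted p = 2.99e-82). PTPRB stood at 1.19, 0.776 and 1.47 CPM in control and at 12.4, 12.7 and 11.6 CPM in knockdown libraries (log2 fold change 3.40 ± 0.16 SE, adjusted p = 4.77e-50). Both were higher in every knockdown library. The genes are neighbours on chromosome 12 (PTPRB chr12:70515870-70637429, PTPRR chr12:70638073-70920738), with 643 bases between them, and whether reads of 1 transcript count for both was not tested. Of the genes around them, KCNMB4 before them rose from 77.8 to 92.5 CPM, and TSPAN8 after them had 0 counts in all 6 libraries. In the family 0 genes fell and 5 of 14 rose, the other 3 rises being of PTPRU, PTPRJ and PTPRC (from 6.98 to 10.0 CPM, from 33.8 to 41.0 CPM and from 353 to 388 CPM).

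Families that damp G protein and cyclic nucleotide signals held more rises than falls. Regulators of G protein signalling speed up the turning off of G proteins, and 6 of 14 rose and 0 fell. RGS9 stood at 29.3, 27.5 and 30.3 CPM in control and at 84.8, 85.9 and 88.3 CPM in knockdown libraries (log2 fold change 1.57 ± 0.06 SE, adjusted p = 2.16e-61). RGS13, found in germinal centre B cells, stood at 29.4, 29.3 and 28.2 CPM in control and at 46.3, 42.1 and 39.98 CPM in knockdown libraries (log2 fold change 0.56 ± 0.07 SE, adjusted p = 5.43e-12). In both genes the knockdown libraries were the higher ones without overlap. RGS12, RGS2 and RGS16 rose from 19.6 to 31.3 CPM, from 10.4 to 16.0 CPM and from 219 to 270.1 CPM. Of 17 genes of phosphodiesterases and of the family's symbol, 9 rose and 1 fell. PDE4B, which breaks down cyclic AMP and limits its effect in lymphocytes, stood at 26.5, 24.6 and 26.0 CPM in control and at 49.9, 56.6 and 49.9 CPM in knockdown libraries (log2 fold change 1.02 ± 0.07 SE, adjusted p = 1.14e-32), with all knockdown libraries higher. PDE8A and PDE4D rose from 42.2 to 57.7 CPM and from 5.42 to 7.26 CPM, and PDE12, a mitochondrial enzyme that acts on RNA and not on cyclic nucleotides, fell from 49.1 to 38.1 CPM.

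In intracellular calcium handling 17 of 39 genes rose and 5 fell, against 24.4% higher and 24.6% lower of all genes. ITPR2, a calcium release channel opened by inositol trisphosphate, rose from 416 to 579.6 CPM, the calcineurin target NFATC4 from 52.2 to 71.8 CPM, the store-operated channel ORAI3 from 11.8 to 15.9 CPM and the mitochondrial channel MCU from 14.7 to 18.98 CPM. RYR2, another release channel, was an exception chosen after its values were seen, and fell from 219 counts over the control libraries to 1 over the knockdown libraries (from 4.21 to 0.0198 CPM). Of 28 genes of protein kinase C and diacylglycerol, 3 fell and 9 rose, a share of rises near that of all genes, and among them was RASGRP1, which activates RAS on diacylglycerol (from 14.2 to 30.1 CPM). Of potassium channels and their partners 13 of 39 rose, among them KCNH2 (from 61.0 to 79.2 CPM) and KCNQ1 (from 12.9 to 19.4 CPM), and 3 fell, among them KCNQ5 (from 65.8 to 45.1 CPM).

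Developmental pathway genes rose at several steps. Of 48 Wnt genes, 22 rose and 7 fell. Among ligands, WNT5B rose from 14.7 to 23.4 CPM, and among Frizzled receptors FZD1, FZD5 and FZD2 from 5.70 to 9.05 CPM, from 11.5 to 14.9 CPM and from 10.5 to 13.5 CPM. Among the nuclear factors, TCF7, best known from T cells, stood at 4.64, 4.24 and 4.41 CPM in control and at 11.4, 13.4 and 10.9 CPM in knockdown libraries (log2 fold change 1.42 ± 0.12 SE, adjusted p = 2.01e-24), with no overlap between the groups. TCF7L2 rose from 12.3 to 17.3 CPM, whereas LEF1 fell from 199 to 184 CPM, a call lost without knockdown replicate 2 (adjusted p = 0.156), with library totals alone and on FPKM values. Target and feedback genes went both ways. AXIN2 and NKD2 rose from 5.95 to 7.48 CPM and from 11.6 to 15.8 CPM, the call of AXIN2 being lost without control replicate 3 (adjusted p = 0.0532), and ZNRF3 fell from 32.3 to 28.8 CPM, a call that 8 of the 15 alternatives did not keep, among them those without control replicate 1 or 2 or knockdown replicate 1 or 3 (adjusted p up to 0.235). These 3 genes and LEF1 were named after their values were seen. CTNNB1, beta-catenin itself, did not pass the test (from 151 to 154 CPM). Of 30 Notch genes, 13 rose and 4 fell. NOTCH2, a receptor required for marginal zone B cells, stood at 89.4, 91.5 and 94.2 CPM in control and at 135, 144 and 141 CPM in knockdown libraries (log2 fold change 0.61 ± 0.04 SE, adjusted p = 1.35e-36). Its knockdown libraries were all above its control libraries. The ligand gene JAG2, the ubiquitin ligase gene DTX4 and the target gene HES1 rose from 17.9 to 24.6 CPM, from 58.8 to 88.5 CPM and from 7.71 to 11.4 CPM, and NOTCH1 fell from 72.0 to 63.0 CPM.

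Receptor tyrosine kinases rose in 13 of 31 and fell in 3, with 7 of the rises among the 10 genes that averaged 5 CPM or more. INSR and IGF1R, the receptors of insulin and insulin-like growth factor, rose from 115 to 145 CPM and from 80.8 to 101 CPM, TYRO3 from 21.7 to 34.0 CPM and the ephrin receptor EPHA4 from 23.04 to 30.3 CPM. Of 30 growth factor genes 6 rose and 4 fell, neither share above that of all genes. HBEGF, a ligand of the EGF receptor, stood at 7.92, 8.90 and 7.75 CPM in control and at 37.0, 38.7 and 36.7 CPM in knockdown libraries (log2 fold change 2.19 ± 0.10 SE, adjusted p = 2.15e-54). VEGFD, a ligand that acts on lymphatic vessels, stood at 3.17, 2.51 and 3.73 CPM in control and at 9.78, 11.8 and 11.9 CPM in knockdown libraries (log2 fold change 1.82 ± 0.17 SE, adjusted p = 8.88e-20). Both were several-fold higher in each knockdown library. EGFR, a receptor of HBEGF, had 0 counts in all 6 libraries.

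Semaphorins and their plexin receptors, named for axon guidance and also active on immune cells, rose in 11 of 28 and fell in 3, with 6 of the rises at a mean of 5 CPM or more. The receptors PLXND1, PLXNC1, PLXNA3 and PLXNA1 rose from 115 to 179 CPM, from 28.5 to 51.9 CPM, from 37.4 to 48.2 CPM and from 49.6 to 60.3 CPM, and the ligands SEMA6B and SEMA6C from 4.74 to 10.1 CPM and from 7.37 to 12.8 CPM. SEMA4D and SEMA4A, the semaphorins best known from lymphocytes, fell from 72.7 to 61.4 CPM and from 62.5 to 51.3 CPM, and SEMA7A, named after its values were seen, fell at a low level (from 3.82 to 0.162 CPM). Of 23 receptors of GABA, glutamate and acetylcholine, 5 rose and 1 fell, a share of rises no higher than over all genes. GABRR2, a GABA receptor subunit, stood at 7.13, 7.76 and 5.09 CPM in control and at 20.2, 21.7 and 21.1 CPM in knockdown libraries (log2 fold change 1.66 ± 0.13 SE, adjusted p = 2.81e-26), with the knockdown libraries all higher. GABBR1, a subunit of the other class of GABA receptor, rose from 25.2 to 45.4 CPM. In other families of surface proteins, the adhesion receptor ADGRB2 rose from 78.8 to 126 CPM (6 of 16 such receptors rose and 2 fell) and the tetraspanins TSPAN33 and TSPAN7 from 29.1 to 47.1 CPM and from 5.50 to 12.2 CPM (6 of 16 tetraspanins rose and 1 fell).

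**Figure D4:**
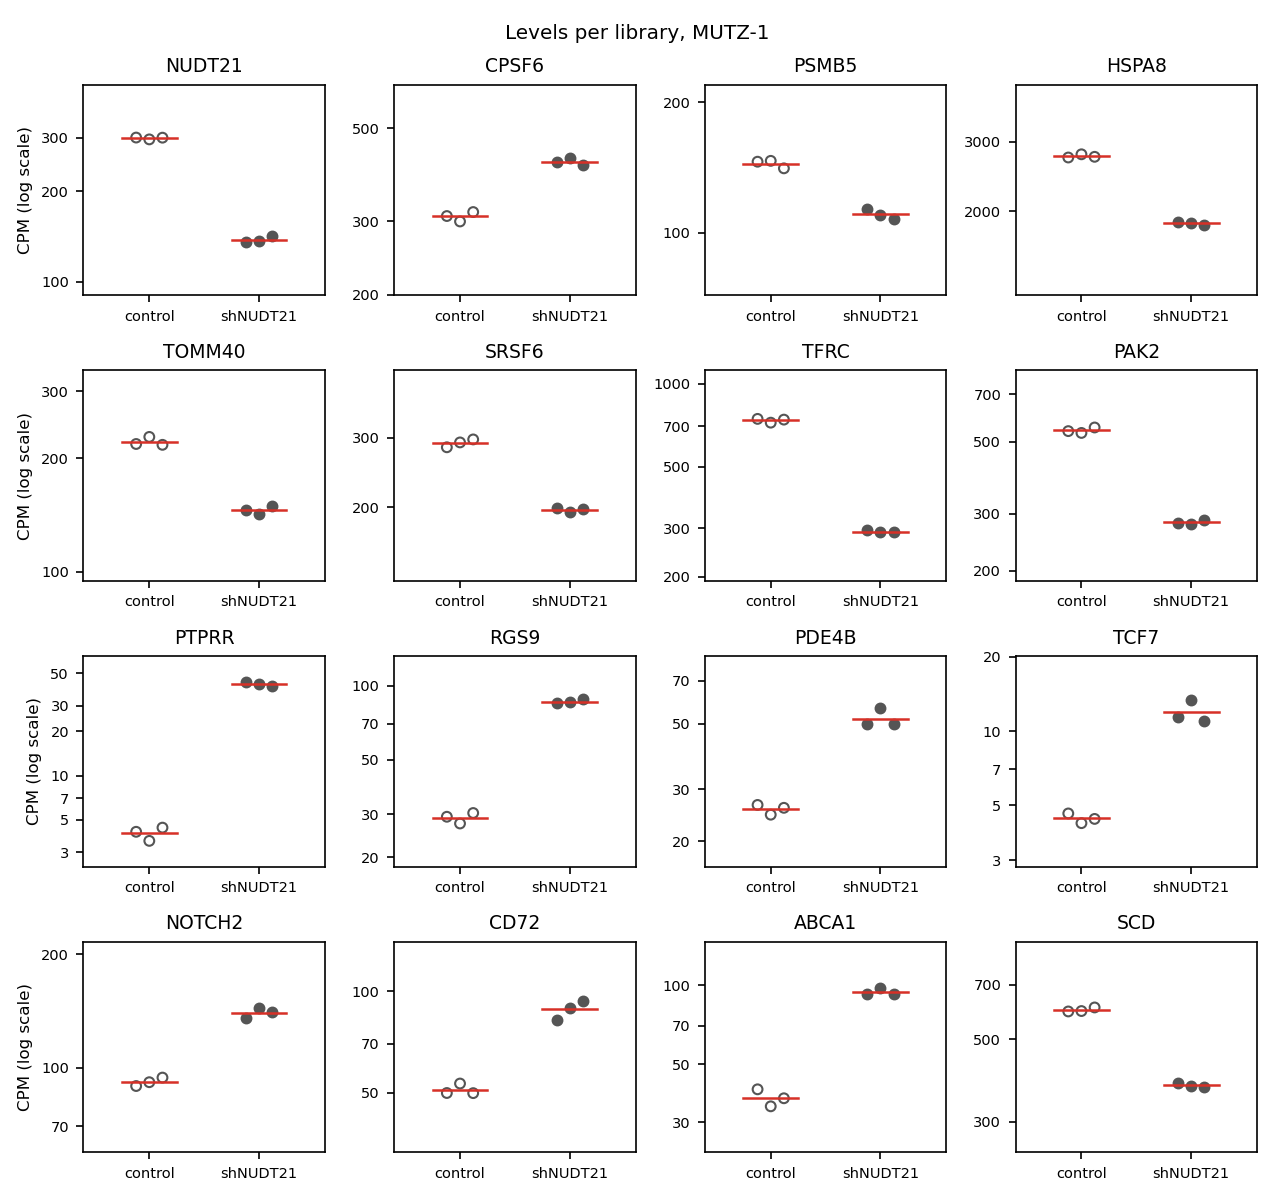
CPM in each of the 6 libraries (log axis) for 16 genes described in the text; open points are control and filled points knockdown libraries, and short bars are group means. Within each gene the points of a group lie close together and the 2 groups are apart.

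The B-lymphoid genes that define these cells changed in both directions. Of 19 B-cell markers, 7 rose and 7 fell, 1 of each at least 2-fold. In the MS4A family, which includes the B-cell marker gene MS4A1, 2 of 5 genes tested fell and 0 rose. Its only member with a mean of at least 5 CPM fell strongly (log2 fold change -3.01). The family summed to 185.3 to 191.7 CPM in the control and 22.65 to 24.04 CPM in the knockdown libraries. Of 34 B-cell receptor and signalling genes, 12 rose and 13 fell, and of 26 B-lineage transcription factors 8 rose and 9 fell. The receptor's signalling chains CD79A and CD79B fell little (from 368 to 328 CPM and from 629.9 to 572 CPM), calls lost on FPKM values, and VAV2, which carries the signal on, fell from 50.8 to 40.3 CPM. Among the surface genes that rose, CD72, an inhibitory coreceptor, stood at 49.9, 53.3 and 49.9 CPM in control and at 82.5, 89.6 and 93.7 CPM in knockdown libraries (log2 fold change 0.80 ± 0.06 SE, adjusted p = 2.28e-26). Its groups did not overlap. FCRL2, a receptor with inhibitory motifs, went up from 30.4 to 60.8 CPM (log2 fold change 1.00 ± 0.07 SE, adjusted p = 9.47e-34). FCRL1, FCRL5, FCRL3 and FCRLB rose from 50.4 to 78.7 CPM, from 57.6 to 72.3 CPM, from 6.38 to 9.77 CPM and from 2.70 to 6.56 CPM, so that 5 of 6 genes of the Fc receptor-like family rose. FCRLA, which stays inside the cell, fell from 537 to 456 CPM. CD22, an inhibitory coreceptor of the Siglec family, rose from 214 to 257 CPM. IKZF2, an Ikaros-family factor gene, rose from 37.95 to 63.6 CPM, POU2F2 from 202 to 261 CPM, while IRF8 and BCL11A fell from 347 to 269 CPM and from 52.6 to 40.7 CPM. The receptor of interleukin 7, IL7R, rose from 29.8 to 51.4 CPM.

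NF-kB genes moved both ways. Of 32 subunits and targets, 11 fell and 6 rose. NFKB1, of the canonical branch, fell from 89.6 to 67.1 CPM, as did the inhibitors and feedback genes NFKBIZ, TNFAIP3 and NFKBIB (from 27.2 to 17.0 CPM, from 20.6 to 14.5 CPM and from 51.7 to 39.8 CPM). NFKB2, of the alternative branch, rose from 77.8 to 101 CPM, as did BIRC3, TRAF1 and CD70 (from 199.9 to 234 CPM, from 9.56 to 14.6 CPM and from 63.6 to 83.6 CPM). LTB, lymphotoxin beta, stood at 9.96, 10.7 and 10.5 CPM in control and at 4.80, 5.98 and 5.36 CPM in knockdown libraries (log2 fold change -0.95 ± 0.16 SE, adjusted p = 4.48e-08), with every knockdown library lower. In the TNF superfamily and its receptors, 11 of 23 fell and 6 rose, with 4 of the falls at a mean of 5 CPM or more, and 7 fell without control replicate 1. TNFRSF17 and TNFRSF13C, receptors of the B-cell survival factors, fell from 11.9 to 8.56 CPM and from 25.4 to 18.5 CPM, the first call being lost without control replicate 1 (adjusted p = 0.124), and TNFRSF21, a death domain receptor, rose from 63.3 to 93.5 CPM. TNFRSF13B went from 61 counts over the control libraries to 0, at least 19.4-fold lower by a floor of 3 counts over the group, which covers counting error only.

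Among lipid genes outside sterol synthesis, those of cholesterol export mostly rose, and several of fatty acid synthesis fell. Of 15 LXR targets and export genes, 10 rose and 3 fell. ABCA1, which loads cholesterol onto apolipoprotein A-I, stood at 40.02, 34.5 and 37.0 CPM in control and at 92.4, 97.7 and 92.9 CPM in knockdown libraries (log2 fold change 1.34 ± 0.06 SE, adjusted p = 4.14e-58), every knockdown library being higher. ABCG1 rose from 11.4 to 67.1 CPM, MYLIP, which degrades the LDL receptor, from 19.8 to 29.6 CPM and NR1H3, the gene of LXR alpha, from 5.09 to 6.84 CPM. SCARB1, a receptor for HDL, fell from 157 to 129 CPM. In fatty acid metabolism 14 of 45 genes rose and 12 fell. SCD, which makes oleate, stood at 593, 595 and 608 CPM in control and at 381, 375 and 373 CPM in knockdown libraries (log2 fold change -0.67 ± 0.02 SE, adjusted p = 3.21e-79), with each knockdown library lower. FASN and ACACA, the synthase and the carboxylase before it, fell from 518 to 377 CPM and from 295 to 240.4 CPM. ACACB, the carboxylase at mitochondria, and CPT1B and CPT1A, which admit fatty acids to oxidation, rose from 24.5 to 44.6 CPM, from 58.2 to 78.3 CPM and from 27.95 to 34.2 CPM.

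Centrosome and cilium genes held more rises than falls. Centrosomal CEP genes rose in 19 of 37 and fell in 4. CEP70 stood at 12.5, 10.8 and 11.2 CPM in control and at 20.9, 18.2 and 19.1 CPM in knockdown libraries (log2 fold change 0.75 ± 0.09 SE, adjusted p = 7.49e-15), all knockdown libraries being higher. CEP126 and CEP135 rose from 20.6 to 28.9 CPM and from 58.2 to 75.2 CPM. CEP19, which fell from 25.01 to 20.1 CPM, lies in the block on chromosome 3. This count depended on gene length: with the length trend removed, 11 CEP genes rose and 8 fell. The family of intraflagellar transport genes, which carry cargo along the cilium, with Bardet-Biedl and TTC genes, rose in 22 of 54 and fell in 7. IFT81 and IFT80, of the complex that moves toward the tip, rose from 24.8 to 37.0 CPM and from 76.9 to 110.3 CPM, IFT140, of the complex that returns, from 26.1 to 37.1 CPM, and BBS4 and BBS2 from 20.8 to 32.2 CPM and from 29.0 to 42.6 CPM. TTC38, which shares only the repeat of the TTC symbol, fell from 14.8 to 7.44 CPM.

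Several large groups held about as many rises as falls. Of 33 genes of the ATF4 and amino acid response, 10 rose and 11 fell, with ATF4 itself lower (from 697 to 629.6 CPM). Within the list, ASNS, CHAC1 and DDIT4, classical targets of ATF4, rose from 305 to 382 CPM, from 19.8 to 26.4 CPM and from 28.7 to 40.2 CPM, and amino acid carriers such as SLC7A5 fell from 734 to 622 CPM. Of 462 zinc finger ZNF genes 78 rose and 77 fell, and of 260 solute carriers 60 rose and 58 fell. In the lysosome list, 12 of 35 rose and 10 fell, with the cathepsins moving apart: CTSS, which processes the invariant chain, fell from 82.8 to 34.4 CPM, and CTSB rose from 31.4 to 52.0 CPM. Autophagy genes fell in 8 and rose in 12 of 33 cases, and OPTN, a cargo receptor, rose from 6.87 to 15.2 CPM.

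In abundance, the largest rises were of the elongation factor genes EEF2, EEF1A1 and EEF1G (from 4337 to 5163 CPM, from 9058 to 9638 CPM and from 1930.3 to 2327 CPM), and EIF4B rose from 1019.8 to 1299 CPM. Of the 53 translation initiation factor genes 11 rose and 25 fell, the falls including EIF4G2 (from 1422 to 1055 CPM) and EIF3B (from 1017 to 797 CPM). EIF3CL fell from 81.3 to 3.02 CPM, but it is a near copy of EIF3C, between which counting can split reads, and its call was lost without control replicate 1 or any 1 knockdown replicate. The largest falls in abundance were of ACTB, HSPA8, HSPD1, TFRC, NCL, HSP90AA1, HSP90AB1, LDHA, ACTG1 and ADAR. ACTB and ACTG1, the cytoplasmic actins, fell from 6421 to 5041 CPM and from 1665 to 1171 CPM. CCDC88A, an actin-binding protein that activates G proteins, stood at 380.2, 361 and 380.3 CPM in control and at 598, 559 and 588 CPM in knockdown libraries (log2 fold change 0.64 ± 0.02 SE, adjusted p = 5.79e-62), higher in each knockdown library.

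For a few genes of these groups, the change was compared with that in SKM-1 by a test of the difference itself, which was called for 72.0% of all genes. RPL35A fell from 758 to 489.7 CPM in SKM-1, and its difference did not pass the test (difference of log2 fold changes -0.03 ± 0.03 SE, adjusted p = 0.407), although it was 0.10 and passed with library totals alone (adjusted p = 1.68e-03), on log2(FPKM + 0.1) and on log2(FPKM + 1) (adjusted p = 0.0263 and 0.0253). SCD fell in both lines, from 1609 to 1223 CPM in SKM-1, and more in MUTZ-1, and PTPRR went up in both, from 3.66 to 18.7 CPM in SKM-1, and again more in MUTZ-1. Genes of folding, import, splicing and nuclear transport that fell in MUTZ-1 rose in SKM-1: DNAJA1 from 147 to 351 CPM, HSPD1 from 839.9 to 972 CPM, TOMM40 from 135 to 281 CPM, SRSF6 from 135 to 219.8 CPM and IPO4 from 78.8 to 152 CPM. PSMD6 rose there from 74.5 to 109 CPM and PAK2 from 195 to 221 CPM. NOTCH2, TCF7 and CEP70, which rose in MUTZ-1, fell from 225 to 17.9 CPM, from 38.6 to 21.1 CPM and from 46.7 to 31.1 CPM in SKM-1. In each of these 12 genes the difference between the lines was called. The 6 libraries of each line hold their own controls, so that no control library is shared between them.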

How the data were processed

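Gene counts of 12 RNA-seq libraries were deposited by the authors, who per the labels' protocols used TRIzol and a stranded mRNA kit, and per the submitters' processing notes used fastp, HISAT2, HTSeq and GRCh38. The sources used here give no versions, annotation or strand setting of the counting, so that overlapping and antisense genes cannot be told apart. The deposited FPKM values of the same genes, also made by the authors, served for alternative tests and for gene length. Of 17518 genes, 13625 passed filterByExpr over the 4 groups. They were tested with edgeR 4.0.16 in R 4.3.3 (quasi-likelihood, robust, TMM scaling, all 12 libraries, no covariates, 8 residual degrees of freedom, biological coefficient of variation 2.44%). P-values were adjusted by Benjamini-Hochberg over all genes tested and called under 0.05. On simulated counts for this comparison over 13625 genes, 46 of 50 genes changed 1.25-fold and 50 of 50 changed 2-fold were called. So were 15 of 13425 unchanged genes. The 200 changed genes were drawn only from genes with higher counts, and every gene was given the same spread. Recovery at low levels, or with as many changes as in the data, was not tested.

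Replicates of MUTZ-1 differed from each other by more than counting noise (chi-square per degree of freedom 1.88 to 2.28). Members and lists were chosen with earlier results of these data known. By rule, the text could name NUDT21 and its partners, the 30 largest rises and 30 largest falls outside the interferon, MHC, ribosome assembly and sterol lists, up to 6 called members of each list with a mean of at least 5 CPM, whole lists of up to 20 genes, the 10 largest changes in CPM each way, and genes at 0 counts in 1 group. AARS1, ACACA, ACAP2, AHSA1, ASNS, ATF4, AXIN2, BAG3, BDH1, BIRC3, CALR, CANX, CD70, CDC7, CEP19, CPT1A, CPT1B, CTNNB1, DDX11, DDX20, DHX9, DNAJB6, EGFR, EIF3B, FTH1, FZD2, FZD5, HERPUD1, HSF1, IARS1, IFT140, IFT80, IPO7, IPO9, KCNH2, KCNMB4, LEF1, MELTF, MKI67, MUC4, NCBP2, NFKB2, NFKBIB, NKD2, NOTCH1, PCYT1A, PIGZ, PLXNA1, RNF168, RYR2, SARS1, SEMA4D, SEMA7A, SLC7A5, UBXN7, XPO1 and ZNRF3 fall outside it and were chosen after their values were seen. Alternatives were DESeq2 1.42.0, its size factors in edgeR, library totals, limma 3.58.1 on log2(FPKM + 1) and log2(FPKM + 0.1), no filter, the 6 libraries alone, removal of the gene length trend, a replicate block and leaving out each replicate.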

Additional observations from a re-analysis of the deposited data

Results flagged for a closer look

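The 12 results below stand out because the change after NUDT21 knockdown differed between MUTZ-1 and SKM-1 by a test of the difference itself (edgeR's quasi-likelihood test, Benjamini-Hochberg adjustment over all genes). They were compared because the text leads with them, and 72.0% of all genes tested passed the same test. Values are log2 fold changes, and differences are MUTZ-1 minus SKM-1 ± SE. The largest difference was that of NOTCH2, at 4.25 ± 0.06, from 0.61 in MUTZ-1 and -3.64 in SKM-1. TCF7 and CEP70 also rose in 1 line and fell in the other, with differences of 2.29 ± 0.14 and 1.34 ± 0.11. In the other direction, DNAJA1 differed by -1.70 ± 0.04. TOMM40 differed by -1.65 ± 0.04 and IPO4 by -1.63 ± 0.05. SRSF6, PAK2, PSMD6 and HSPD1 differed by -1.27 ± 0.04, -1.11 ± 0.04, -0.95 ± 0.06 and -0.83 ± 0.03, falling in MUTZ-1 and rising in SKM-1. PTPRR rose in both lines, with a difference of 1.02 ± 0.17, and SCD fell in both, with one of -0.27 ± 0.03. The lines also differ in level: NOTCH2 stood at 225 CPM in SKM-1 control and at 91.7 CPM in MUTZ-1 control. What sets the lines apart was not tested.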

How the results depend on the processing

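NUDT21 was called lower under every alternative run. Of 240 named genes called, 218 kept the call under all 15 alternatives. The calls of CD72, FCRLA, IRF8, KCNMB4, SEMA4A, SEMA4D and TNFRSF13C were lost only on log2(FPKM + 0.1), and the cause was not tested. The replicate block gave 3241 genes higher and 3292 lower. Libraries of the same number did not deviate together (r 0.046, -0.007 and 0.011), and not every sample correlated best with its own number. The labels do not say whether equal numbers share a culture or day, and with 3 libraries a group these correlations cannot settle it. Leaving out 1 library gave 3049 to 3490 genes higher and 2617 to 3125 lower. Changes of at least 2-fold numbered 243 higher and 100 lower on log2(FPKM + 0.1), and 30 and 32 on log2(FPKM + 1), where the pseudocount shrinks low genes. With genes of at least 5 CPM only, an alternative chosen after seeing the data, they numbered 87 and 34. That limit left 6 semaphorin and plexin genes and 7 receptor tyrosine kinases higher and 4 TNF superfamily genes lower. On log2(FPKM + 0.1) and log2(FPKM + 1), 8 and 8 citric acid cycle genes and 14 and 15 DNA replication genes were lower, and on log2(FPKM + 1) 7 TNF superfamily genes. Leaving out 1 library left 7 to 9 of these, 7 without control replicate 1. With the length trend removed, 11 CEP genes were higher. The directions of CTNNB1 (-0.02 with the length trend removed, -0.01 to 0.09 without 1 library), MKI67 (0.00 to 0.05, 0.02 with DESeq2, 0.03 without control replicate 1), PFDN1 (0.02 to 0.03), PFDN5 (-0.02 to 0.06 without 1 library, -0.01 without control replicate 3), SRSF10 (-0.05 with the length trend removed), IARS1 (-0.00) and the difference of RPL35A (0.02 to 0.10, with 0.03 and 0.04 without control replicate 2 or knockdown replicate 2) turned, and the cause was not tested. Genes under 5 CPM rest on few counts in libraries of this depth.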

Other observations

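Gene families that the lists above do not cover were mostly balanced. Of 24 ADAM and ADAMTS protease genes tested, 7 rose and 1 fell, and of 35 ABC transporter genes 11 rose and 4 fell. ABCA2, an ABC transporter of lipids in the endolysosome, rose from 42.1 to 75.7 CPM in MUTZ-1 (log2 fold change 0.85 ± 0.05 SE). Of the genes at 0 counts in 1 group, DDX60, a helicase gene that interferon induces, went from 137 counts over the control libraries to 0, at least 43.5-fold lower, and CYP2W1, a cytochrome P450 gene, from 56 counts to 0, at least 17.8-fold lower, both by a floor of 3 counts over the group.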
